A study of Eucalyptus camaldulensis with 12 samples.

Results

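The comparison set 4 leaf RNA libraries of Eucalyptus camaldulensis seedlings from Katherine, a provenance of the dry tropics, against 4 of seedlings from Petford, a provenance of the humid tropics. These 8 libraries were chosen by their labels out of 12 in the series; the other 4, from Mt Isa, did not enter the tests. In each population, leaf tissue of 5 seedlings kept watered to field capacity was bulked for RNA extraction at the start, giving C0, and when the experiment ended, giving C1. Leaf tissue of 10 other seedlings was bulked before water was withheld (S0) and again once they had spent about 2 months at 30% of field capacity (S1). From each seedling 2 leaves were taken, and each population and stage is 1 library. Reads were counted over 43425 predicted transcripts of the draft E. grandis genome. After removal of 245 identical entries and of 1633 transcripts that shared scaffold and start with another, 40630 transcripts had at least 10 reads in the 8 libraries and were tested.

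River red gum is a widespread tree whose provenances differ in climate of origin. Eucalypt leaves store large amounts of terpenes, volatile and oily compounds assembled by terpene synthases from prenyl diphosphates, and often modified afterwards by cytochrome P450 enzymes. The terpene synthase family of eucalypts is large and lies in arrays of similar neighbouring genes, so reads may be divided among near-identical copies and values of single members are uncertain to that extent.

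The libraries held between 1902802 (Petford C0) and 6951584 (Petford S1) counted reads, and between 84.4% and 95.3% of the tested transcripts had a read in each library. Petford S0 stood apart in the share of reads taken by its 10 most abundant transcripts, which was 12.7% against 3.56% to 9.67% in the other Katherine and Petford libraries. Over the 500 transcripts that differed most in each pair of libraries, the root mean square log2 difference was 2.60 to 3.44 between Katherine and Petford at one stage and 3.09 to 6.24 between stages of one population, with S1 the stage farthest from the others. C0 and S0 are different seedlings, both sampled before the treatment. They were 3.55 apart in Katherine and 3.09 in Petford. The populations were 3.23 apart in C0 and 3.44 in S0, so untreated bulks of 1 population differed about as much. C0 and C1 came from the same seedlings, as did S0 and S1. The 4 pairs of libraries thus stand for 2 sets of seedlings per population. The main test compared the populations within each stage, so its p-values rest on how the Katherine minus Petford difference varied between stages. Both samplings of the same seedlings count there as separate replicates. The p-values do not measure the spread between seedlings or bulks of a population. A population difference in RNA level and one in the match of its sequences to the E. grandis genome cannot be told apart in these counts.

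To find transcripts that differed by provenance over the stages, Katherine was compared with Petford with stage as a block, in edgeR's quasi-likelihood test. At a Benjamini-Hochberg adjusted p under 0.01, 46 transcripts (0.113% of those tested) were higher in Katherine and 60 (0.148%) were higher in Petford. The median size of the difference was 3.05 on the log2 scale for the former and 2.45 for the latter. Of the 106 transcripts, 97 lay on the same side in all 4 stages, where a difference of any size counted, such as -0.03 for Eucgr.K03248 in C0. The test favours differences that vary little between stages, so this agreement is no separate support for the calls. Ranges of the counts-per-million value (CPM, with library totals scaled by TMM factors) did not overlap between populations for 30 of the 46 and for 25 of the 60, beside 0.992% and 1.51% of all transcripts tested (2.5% in either direction). At an adjusted p under 0.05, 375 transcripts (0.923%) were called, and at an unadjusted p under 0.05, 4772 (11.7%). The transcript nearest the threshold on the inside had an adjusted p of 0.00999, with all its reads in 1 library, and the nearest on the outside, Eucgr.J01831, had a log2 difference of 3.17. These counts depend on the fit. The bias-adjusted form of the quasi-likelihood test was chosen after its counts and those of edgeR's default form, 168 and 262, had both been seen; the 106 transcripts were called in both. Without the stage block, or with the reads of the same seedlings summed, no transcript was called, leaving out any 1 library left 0 to 8 and 0 to 6, and without stage S1 the counts were 13 and 3.

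**Figure D1:**
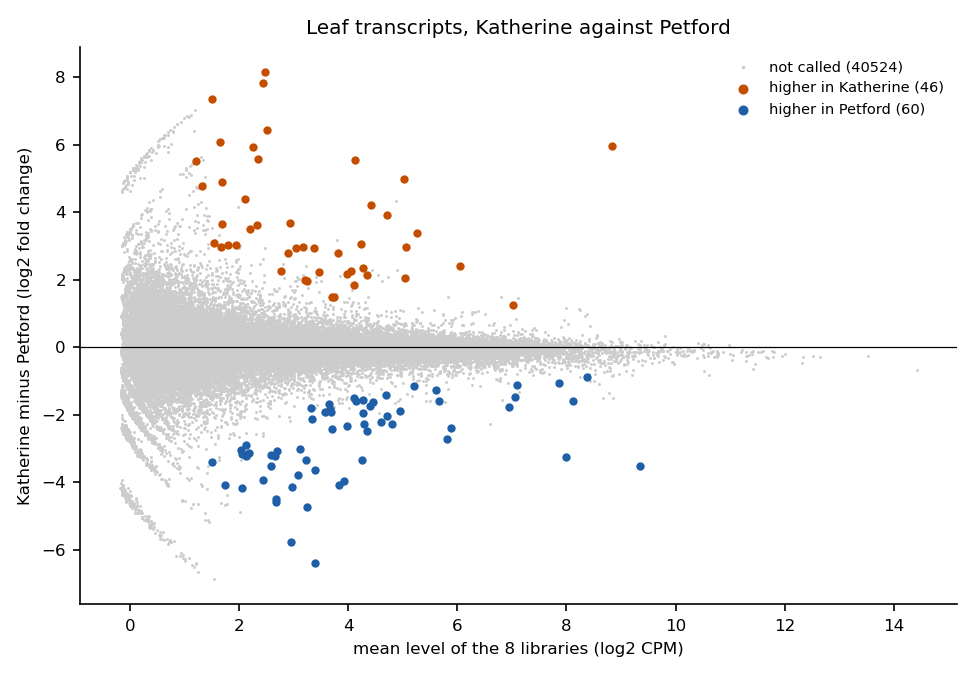
Each point is 1 of the tested transcripts, with its mean level in the 8 libraries (log2 CPM) on the x axis and its Katherine minus Petford log2 fold change on the y axis. The 46 transcripts called higher in Katherine and the 60 called higher in Petford are coloured, and their log2 fold changes run from -6.41 to 8.15.

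Terpene synthases gave the most called genes of any list, and in both directions. Of all named genes with a homolog, 20 of 1959 (1.02%) were called. Of 19 measured terpene synthase homologs, 2 were higher in Katherine, 5 were higher in Petford and 12 did not pass the test; their median log2 difference was -0.05, against -0.03 for all transcripts. The list of 26 genes that held them also held a farnesyl diphosphate synthase, a phytoene synthase and a pair of geranylgeranyl reductase homologs, and 3 trehalose genes matched by the symbol TPS, none of which was called. The list's median was 0.00 and turned from below to above 0 with RLE in place of TMM factors.

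CUFF.1110, a homolog of Arabidopsis TPS02 at 17353234 to 17357495 on scaffold 1, had the largest difference among called genes with a known homolog. TPS02 and TPS10 are monoterpene synthases in Arabidopsis. The level of CUFF.1110 was 681, 2317, 721 and 8.17 CPM in Katherine C0, C1, S0 and S1, and 4.98, 4.12, 20.7 and 3.55 CPM in the same stages of Petford. The first 3 Katherine libraries were far above every Petford library, while Katherine S1 lay within the Petford range. The fitted difference was 5.97 ± 0.79 (log2, SE; edgeR adjusted p = 0.0030). CUFF.1697, a homolog of the 1,8-cineole synthase TPS-CIN of Arabidopsis at 27277059 to 27277841 on scaffold 1, had 45.1, 152, 67.7 and 1.51 CPM in Katherine against 0.554, 0.951, 1.33 and 1.94 CPM in Petford. Its difference was 5.0 ± 0.82 (edgeR adjusted p = 0.0099), and in S1 it was higher in Petford. Its neighbour CUFF.1698, at 27275587 to 27276954 on scaffold 1, missed the threshold with a difference of 4.35 ± 0.81 (edgeR adjusted p = 0.024), and an unnamed transcript beside both passed it at 5.58; since the 3 lie within 2.91 kb, they may not be separate genes.

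In Petford, CUFF.1343, CUFF.1130 and CUFF.1107 were higher, and these 3 lie in the same 280 kb of scaffold 1 as CUFF.1110. CUFF.1343, a TPS10 homolog and the called transcript with the most reads, at 17290163 to 17293925, had 1123, 2513, 879 and 242 CPM in Petford C0, C1, S0 and S1, against 11.3, 369, 178 and 19.6 CPM in Katherine. Petford was higher at each stage, although the ranges overlapped because Petford S1 was below Katherine C1. The difference was -3.51 ± 0.45 (log2, Katherine minus Petford; edgeR adjusted p = 0.0028).

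CUFF.1130, another TPS10 homolog, had 9.12, 166, 69.4 and 7.53 CPM in Katherine and 429, 948, 347 and 103 CPM in Petford, a difference of -3.25 ± 0.35 (edgeR adjusted p = 0.00083). CUFF.1107, a TPS02 homolog, had 7.51, 33.4, 16.7 and 1.29 CPM against 96.4, 240.0, 47.1 and 13.7 CPM, a difference of -2.71 ± 0.27 (edgeR adjusted p = 0.00064). Thus within 1 array of 6 measured members, at 17077866 to 17357495, 3 members were higher in Petford and 1 in Katherine.

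Both remaining calls were also higher in Petford at each stage. Eucgr.L02971, a TPS-CIN homolog on scaffold 1733, had 2.15, 22.3, 3.67 and 0.43 CPM in Katherine and 26, 80.8, 17.1 and 3.71 CPM in Petford (difference -2.29 ± 0.27, edgeR adjusted p = 0.0018). Eucgr.F03400 on scaffold 6, a homolog of the sesquiterpene synthase TPS21, had 87.5, 473, 95.9 and 26.2 CPM in Katherine and 361, 874, 251 and 108 CPM in Petford (difference -1.58 ± 0.19, edgeR adjusted p = 0.0017). A second array of 7 members on scaffold 7, from 5398091 to 5591886, gave no call; its CUFF.32671 was nearest, with a difference of 2.29 ± 0.40 (edgeR adjusted p = 0.017), and its level was 58.5, 78.6, 21.6 and 0 CPM in Katherine against 7.20, 12.7, 5.34 and 1.13 CPM in Petford.

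**Figure D2:**
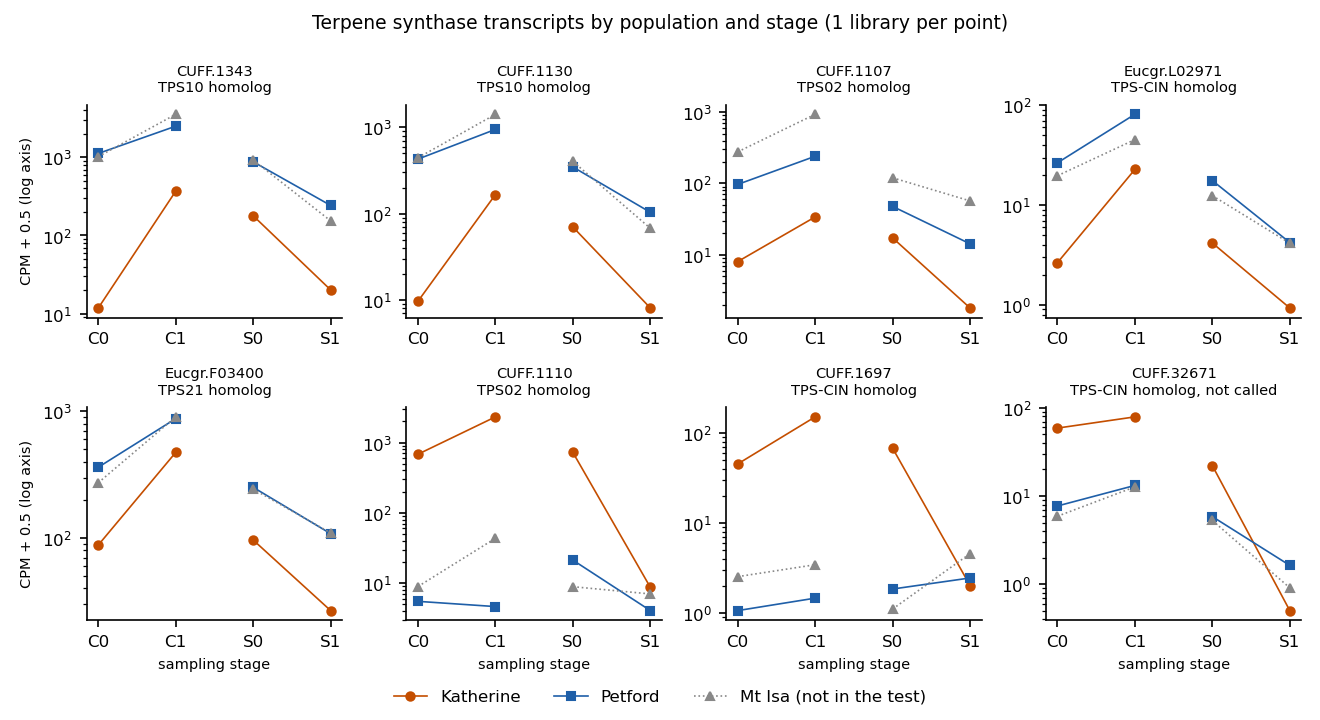
CPM plus 0.5 on a log axis for 8 terpene synthase transcripts in the 4 stages, with 1 library per point and lines joining libraries of the same seedlings; Mt Isa is shown beside the compared populations. CUFF.1343, CUFF.1130, CUFF.1107, Eucgr.L02971 and Eucgr.F03400 are higher in Petford at every stage, CUFF.1110 is higher in Katherine with the gap closing to 8.17 against 3.55 CPM in S1, and in S1 CUFF.1697 and CUFF.32671 are lower in Katherine.

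Both P450 calls were a pair of neighbouring homologs of Arabidopsis CYP71B23, a monooxygenase of the CYP71 family, and were higher in Petford. Eucgr.D01193 had 19.3, 20.3, 15.1 and 0.215 CPM in Katherine C0, C1, S0 and S1 and 64.2, 58.6, 70.3 and 2.26 CPM in Petford, a difference of -1.90 ± 0.22 (edgeR adjusted p = 0.0012). Eucgr.D01195 had 14.5, 16.9, 11.4 and 0.43 CPM against 54.8, 54.2, 57.6 and 2.74 CPM, a difference of -2.03 ± 0.21 (edgeR adjusted p = 0.00083). All Petford libraries before S1 were above all Katherine libraries. Both genes lie between 21684730 and 21705426 on scaffold 4. In the 4 Mt Isa libraries neither had a read, where a floor of 3 reads over the group is 0.329 CPM without TMM factors. Of 42 measured P450 homologs, 0 were called higher in Katherine and 2 higher in Petford, beside 1.02% of named genes called in either direction. Of the 42, 31 (73.8%) had a fitted value below 0, beside 53% of all transcripts and 57.8% of named genes, with a median of -0.30.

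Of 51 glycosyltransferase and serine carboxypeptidase-like genes, which add or transfer groups to secondary metabolites, 1 passed the test. Of all named genes with a homolog, 20 of 1959 (1.02%) did, so 1 call in a list of this size is near that share. Eucgr.J01007, a UDP-glycosyltransferase homolog, had 13.4, 17.9, 9.79 and 0.86 CPM in Katherine and 42.1, 38.7, 30.5 and 5.65 CPM in Petford (difference -1.58 ± 0.23, edgeR adjusted p = 0.0070). Petford was higher at each stage. Eucgr.D00576, a GDSL-type lipase homolog of a family with members active in cutin formation, had 119, 105, 94.7 and 4.95 CPM in Katherine and 289, 223, 229 and 34.1 CPM in Petford (difference -1.48 ± 0.21, edgeR adjusted p = 0.0047). Eucgr.I02065, an extensin-family homolog of the cell wall, had 309, 262, 411 and 23 CPM in Katherine and 487, 512, 652 and 51.3 CPM in Petford, the smallest called difference at -0.87 ± 0.13 (edgeR adjusted p = 0.0096). It was 1 call among 61 cell wall genes. Eucgr.D00576 was the 1 call among 43 epidermis and cuticle genes, which served as markers of that tissue. Their summed level was 6791 to 8023 CPM in the Katherine libraries and 8119 to 11440 CPM in the Petford libraries. A fitted value below 0 was found for 37 of the 43 (86%), beside 53% of all transcripts and 57.8% of named genes. Of the 6 above 0, the largest was 2.29 for Eucgr.A01963, a homolog of protodermal factor 1, which was not called. In at least 1 of the 8 libraries, 6 of the 43 had 0 reads. The part of this tissue in these differences was not tested. In bulk leaves, fewer cells of a type and less RNA per cell cannot be told apart.

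Some genes higher in Petford had their highest Petford level in S1, after the water deficit. Eucgr.F02433, a homolog of annexin ANNAT1, a calcium-dependent membrane-binding protein, had 0, 0, 1.22 and 1.08 CPM in Katherine C0, C1, S0 and S1 and 5.54, 1.90, 16 and 37 CPM in Petford. All Petford libraries were above all Katherine libraries, and the difference was -4.73 ± 0.42 (edgeR adjusted p = 0.00030). An unnamed transcript within 1.95 kb on scaffold 6 differed by -3.79. Mt Isa had 1 read of Eucgr.F02433, in S1. Eucgr.G02325, a homolog of a Rossmann-fold oxidoreductase, had 2.68, 2.36, 1.63 and 29 CPM in Katherine and 5.54, 10.8, 12.2 and 146 CPM in Petford (difference -2.27 ± 0.25, edgeR adjusted p = 0.00098). Eucgr.K03248, a DUF584 protein of unknown function, had 15.7 CPM in Katherine S1 and 63.8 CPM in Petford S1, and 0.338 to 2.45 CPM in the other 6 libraries (difference -1.91 ± 0.31, edgeR adjusted p = 0.0076).

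Higher in Katherine was Eucgr.F01059 at 13782484 to 13786029 on scaffold 6, a homolog of NB-ARC disease resistance proteins, the intracellular receptors that detect pathogen effectors. Its level was 2.68, 1.69, 28.6 and 96.6 CPM in Katherine C0, C1, S0 and S1 and 0, 0.634, 0 and 2.1 CPM in Petford. The Katherine S seedlings were far above all other libraries, also before the treatment, whereas the Katherine C seedlings overlapped with Petford. Its difference was 5.56 ± 0.50 (edgeR adjusted p = 0.00053). It was 1 call among 5 genes listed as disease resistance homologs, beside 1.02% of named genes called, a list too small to give a share. That list was matched by words in the descriptions, and its Eucgr.A01112 and Eucgr.A02477 are also in the phenylpropanoid, lignin and flavonoid list. Eucgr.H03851, described as a transmembrane receptor that binds ATP, had 34.3, 72.2, 6.53 and 4.95 CPM in Katherine and 7.20, 9.51, 1.11 and 2.74 CPM in Petford, a difference of 2.26 ± 0.31 (edgeR adjusted p = 0.0046). In the C seedlings both populations were several times above their S seedlings.

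Eucgr.G02594 and Eucgr.G02595 are neighbours on scaffold 7 that share a homolog of unknown function. Eucgr.G02595 had 94.4, 283, 84.9 and 12.5 CPM in Katherine and 15.5, 42.8, 10.4 and 6.46 CPM in Petford, a difference of 2.41 ± 0.26 (edgeR adjusted p = 0.00083). Eucgr.G02594 had 14.5, 48.9, 12.6 and 1.29 CPM against 1.11, 9.19, 2.45 and 1.13 CPM, a difference of 2.24 ± 0.34 (edgeR adjusted p = 0.0085). Katherine exceeded Petford at each stage for both genes, least so in S1. Outside the rule for naming genes, and chosen after its values were seen, Eucgr.J00493, a homolog of the non-photosynthetic ferredoxin FD3, had 0 reads in C1 of all 3 populations. In C0, S0 and S1 it had 33.8, 24.5 and 156 CPM in Katherine and 7.75, 9.12 and 29.2 CPM in Petford, a difference of 2.05 ± 0.25 (edgeR adjusted p = 0.0030).

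**Figure D3:**
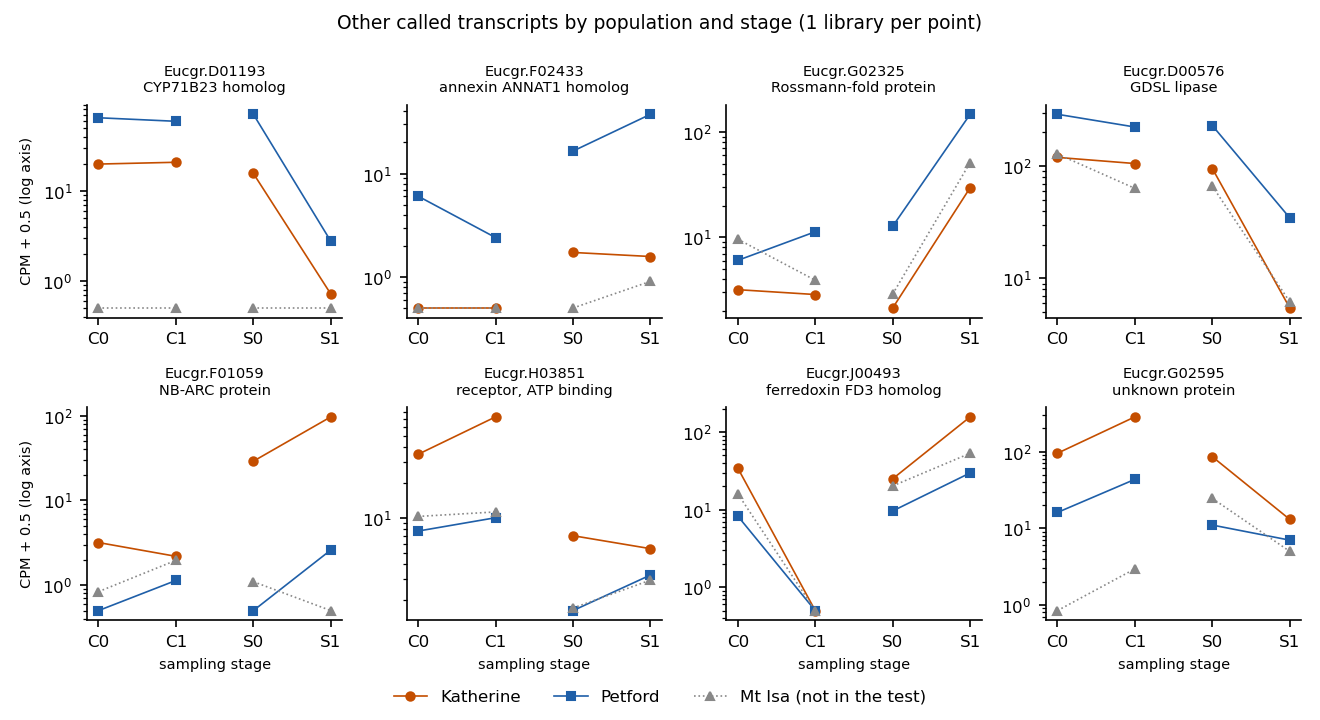
CPM plus 0.5 on a log axis in the 4 stages for 8 other called transcripts, with 1 library per point and lines joining libraries of the same seedlings. The upper row was higher in Petford and the lower row in Katherine; Eucgr.D01193 has no read in Mt Isa, and Eucgr.J00493 has no read in C1 of any population.

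Most called transcripts had no gene name: 30 of 106 had an identifier and 21 an Arabidopsis homolog, since names were known only for transcripts that the study selected for response to water stress or for allelic polymorphism. Among named genes with a homolog, 20 of 1959 (1.02%) were called. Of the 106 calls, 29 lay in 12 groups of neighbours of one direction, no more than 25 kb apart. The largest group was at 1045694 to 1060120 on scaffold 1, where 6 of 7 tested transcripts were called higher in Katherine and the seventh had the same direction. Their reads summed to 304, 369, 378 and 494 in Katherine C0, C1, S0 and S1 and to 26, 76, 86 and 85 in Petford, and the log2 differences ran from 2.36 to 4.4. Each of the 6 had CPM ranges that did not overlap. A second group on scaffold 5, from 1752743 to 1773737, held 3 calls among 5 tested transcripts, with 162, 129, 248 and 661 reads in Katherine and 5, 8, 21 and 172 reads in Petford. Neighbouring transcripts may be pieces of 1 gene, so these calls are not independent of each other.

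Among the unnamed transcripts with the smallest p-values, 5 of 6 lay on the same side at each stage, as the test favours, with differences that varied in size. At 38611553 on scaffold 9, a transcript of 2095 bases had 58, 36.5, 61.2 and 52.3 CPM in Katherine and 0.554, 0.317, 4.89 and 5.65 CPM in Petford (difference 3.91 ± 0.33, edgeR adjusted p = 0.00030). At 14651283 on scaffold 6, the level was 20.9, 15.5, 32.6 and 92 CPM in Katherine and 1.11 to 3.49 CPM in Petford (difference 4.22 ± 0.38, edgeR adjusted p = 0.00030). A member of the group on scaffold 1, starting at 1057879, had 28.4 to 40.2 CPM in Katherine and 1.66 to 5.71 CPM in Petford (difference 3.07 ± 0.26). Higher in Petford was a transcript at 15037663 on scaffold 2, with 24.2 to 31.6 CPM in Petford, 1.01 to 2.86 CPM in Katherine and 0 reads in Mt Isa (difference -3.97 ± 0.29, edgeR adjusted p = 0.00010). A short transcript at 23718140 on scaffold 8 had 2.54 to 16.8 CPM in Petford and 0 to 0.816 CPM in Katherine (difference -4.60 ± 0.46, edgeR adjusted p = 0.00046). The smallest p of all belonged to a transcript of scaffold 62 at 120824 to 122227, with 70, 86, 92 and 0 reads in Petford C0, C1, S0 and S1 and 0, 1, 1 and 0 reads in Katherine, so that neither population had a read in S1. The ratio of its summed reads, each divided by the population's total, was 87.6 for Petford over Katherine (exact 95% counting interval 24.0 to 727; such intervals cover counting error only).

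Among the tested transcripts, 154 (0.379%) had no read in the 4 Katherine libraries and 114 (0.281%) had none in the 4 Petford libraries. These counts were taken at unlike depth, with 12693553 reads in Katherine and 17968959 in Petford. Against a floor of 3 reads over a group, which is 0.236 CPM in Katherine and 0.167 CPM in Petford without TMM factors, the differences were lower bounds. At 6574905 to 6575564 on scaffold 3, Katherine had 15, 55, 50 and 2 reads and Petford 0, at least 57.6-fold higher. At 28465681 on scaffold 7, Katherine had 13, 102, 6 and 0 reads, at least 57.1-fold higher; a neighbouring transcript of this site, Eucgr.G01601, had 128 reads in Katherine and 1 in Petford. At 48934899 on scaffold 7, all 69 reads were in Katherine S1, at least 32.6-fold higher over the group, and the call rested on that library alone. These 3 passed the test. Of the 5 transcripts without Katherine reads that had the most Petford reads, none passed: the transcript at 26118652 on scaffold 6 had 14, 14, 30 and 7 reads in Petford, at least 15.3-fold higher, with an edgeR adjusted p of 0.016, and the other 4 had 51 to 60 Petford reads and adjusted p-values of 0.029 to 0.035. The 2 further transcripts without Petford reads, on scaffolds 5 and 8, had 46 Katherine reads each, 42 and 33 of them in S1 (edgeR adjusted p = 0.019 and 0.015).

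The other gene lists gave few or no calls, beside 1.02% of named genes called. No member was called among 41 receptor kinases, 92 transcription factors, 44 phenylpropanoid, lignin and flavonoid genes, 13 genes of abscisic acid signalling, 11 LEA proteins, 37 antioxidant enzymes, 68 transporters, 13 aquaporins or 32 ribosomal proteins, and the medians of these lists ranged from -0.48 (LEA proteins, which protect cells during drying) to 0.06 (ribosomal proteins); the median of the antioxidant list turned from -0.03 to 0.02 with RLE factors. Nor was any called among 20 chitinases and pathogenesis-related proteins (median 0.31), 61 heat shock proteins and chaperones (0.17), 14 genes of galactinol, raffinose and trehalose synthesis (-0.10) or 9 of the secondary wall and xylem (-0.27), whereas 24 heavy metal and calcium binding genes held 1 call, the annexin. Some lists leaned to one side without calls. Of 42 photosynthesis genes, 40 had a fitted value below 0 (median -0.21), as had all 13 homologs of organelle genes (median -0.46), while 32 of 50 cell division and cytoskeleton genes had one above 0 (median 0.39), beside 53% below 0 of all transcripts tested and 57.8% of named genes. Scaling by RLE factors moved the median of all transcripts from -0.03 to 0.00 and left 39 of the photosynthesis and 13 of the organelle genes below 0. The photosynthesis and organelle lists share members, among them CUFF.298 and Eucgr.L01022, so their counts are not independent. None of the photosynthesis, organelle and cell division lists kept one direction over the stages. Of the organelle homologs, 8 of 13 were higher in Katherine in C0, and 1, 0 and 2 in C1, S0 and S1. Of the cell division genes, 38 and 33 of 50 were higher in Katherine in C0 and C1, but 18 and 22 in S0 and S1. For the photosynthesis genes, Katherine was the higher in 27 of 42 in C0 and in 14 in S1, and in 4 each in C1 and in S0, where Petford S0 had a summed level of 172000 CPM against 121600 CPM in Katherine S0. The part of these levels in the lists' medians was not tested.

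**Figure D4:**
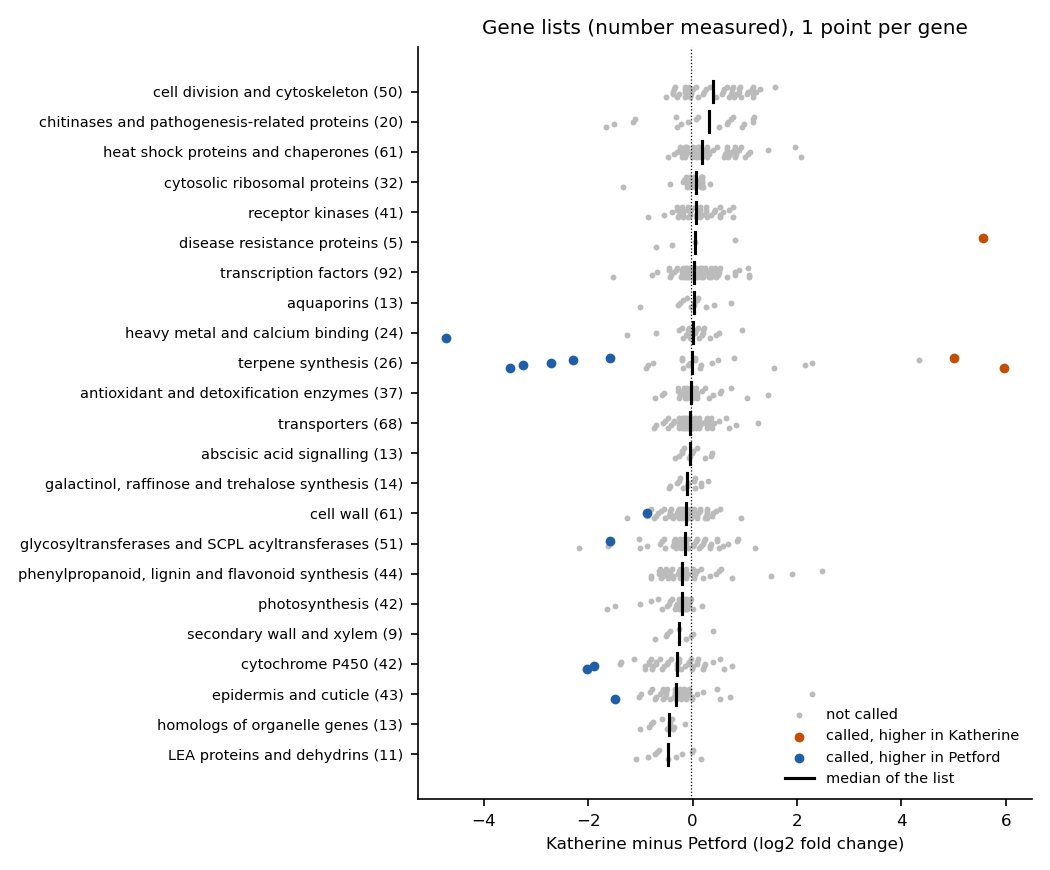
Katherine minus Petford log2 fold change of each measured gene (1 point per gene) in 23 gene lists, with the number measured in brackets, black bars at the list medians and a dotted line at the median of all transcripts (-0.03). Called genes are coloured; the terpene list holds 7 of them, from -3.51 to 5.97, around a median near 0.

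Whether provenance differed more under stress was asked by comparing the Katherine to Petford difference in S1 with that in the other 3 stages. The edgeR quasi-likelihood test called 0 transcripts (0% of those tested) at an adjusted p under 0.01; 1452 (3.57%) had an unadjusted p under 0.05, and the smallest adjusted p was 0.39. DESeq2 called 4, and edgeR's default setting called 44. With 1 library per population in S1, the test had little reach: in simulated counts it recovered 0 of 100 transcripts changed 4-fold. The S1 values therefore stand as a description of 2 libraries.

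In those 2 libraries, 18 of 19 terpene synthase homologs were lower in Katherine than in Petford, where 11, 9 and 8 of 19 were lower in C0, C1 and S0; of all transcripts tested, 53% were lower in Katherine in S1 and 44.5% were higher. Their summed level was 1156, 4241, 1382 and 67.1 CPM in Katherine C0, C1, S0 and S1 and 2209, 5172, 1662 and 508 CPM in Petford. In both populations S1 was the lowest library. Of 44 phenylpropanoid, lignin and flavonoid genes, 29 were lower in Katherine in S1, as were 29, 29 and 18 in C0, C1 and S0. Eucgr.H00087, a chalcone synthase homolog, had 376, 1043, 433 and 12.3 CPM in Katherine C0, C1, S0 and S1 and 525, 1105, 507 and 98.3 CPM in Petford. Eucgr.E03875, an O-methyltransferase OMT1 homolog, had 316, 991, 375 and 6.88 CPM in Katherine and 368, 973, 357 and 50.5 CPM in Petford, so that the populations were apart mainly in S1. Their interaction estimates were -2.68 and -2.77 on the log2 scale, each with an edgeR adjusted p of 0.39, and both genes were chosen after their values were seen.

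Small heat shock proteins, chaperones that hold unfolding proteins, had the opposite order. Of 21 measured homologs, 20 were higher in Katherine in S1, beside 44.5% of all transcripts, and 5, 12 and 14 in C0, C1 and S0. Their summed level was 121, 1040, 269 and 11590 CPM in Katherine C0, C1, S0 and S1, and 148, 641, 169 and 6827 CPM in Petford. Over the 4 stages none of the 21 passed the test by its most abundant transcript. A second, overlapping transcript of Eucgr.L02860 did, with 2.15, 36.1, 2.86 and 690 CPM in Katherine and 0.554, 13, 1.11 and 317 CPM in Petford (difference 1.26 ± 0.19, edgeR adjusted p = 0.0070). Eucgr.B02741, a homolog of HSP17.4, had reads in S1 only, 681 in Katherine and 235 in Petford (edgeR adjusted p = 0.028).

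The C and S seedlings are different plants and share no library, so each set was also fitted alone. The C seedlings gave 4 calls higher in Katherine (0.0129% of 30897 tested) and 1 higher in Petford (0.00324%), and the S seedlings gave 0 in either direction (0% of 36397); with 4 libraries in each fit, an edgeR adjusted p under 0.01 was seldom reached, and 94 of the transcripts tested in both sets had an unadjusted p under 0.001 in the S seedlings. All 5 calls of the C seedlings had the same sign and an unadjusted p under 0.05 in the S seedlings: CUFF.1697, CUFF.1698, CUFF.1110 and the transcript at 38611553 on scaffold 9 were higher in Katherine, and that of scaffold 62 was higher in Petford. In S1 alone, CUFF.1697 and CUFF.1698 were higher in Petford, with 1.51 and 0.43 CPM in Katherine against 1.94 and 2.42 CPM. The scaffold 62 transcript had no read in S1 of either population. For CUFF.1697, CUFF.1698 and the scaffold 62 transcript, the S seedlings thus had the sign of the C seedlings through S0. For CUFF.1110 the difference was 8.37 in the C seedlings and 3.96 in the S seedlings. Of 139 transcripts with an unadjusted p under 0.001 in the C seedlings, 105 (75.5%) had the same sign in the S seedlings and 67 (48.2%) also had a p under 0.05 there, beside 53.4% and 5.5% of the 29046 transcripts tested in both sets. Of the 94 chosen in the S seedlings, 82 (87.2%) had the same sign in the C seedlings. The shares are descriptions without a test. Over 13342 transcripts with a mean above 3 log2 CPM, the Katherine minus Petford difference of 1 stage correlated with that of another at r = 0.27 and 0.26 where the seedlings were the same and at 0.12 to 0.21 where they were not; transcripts share libraries and are not independent replicates.

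**Figure D5:**
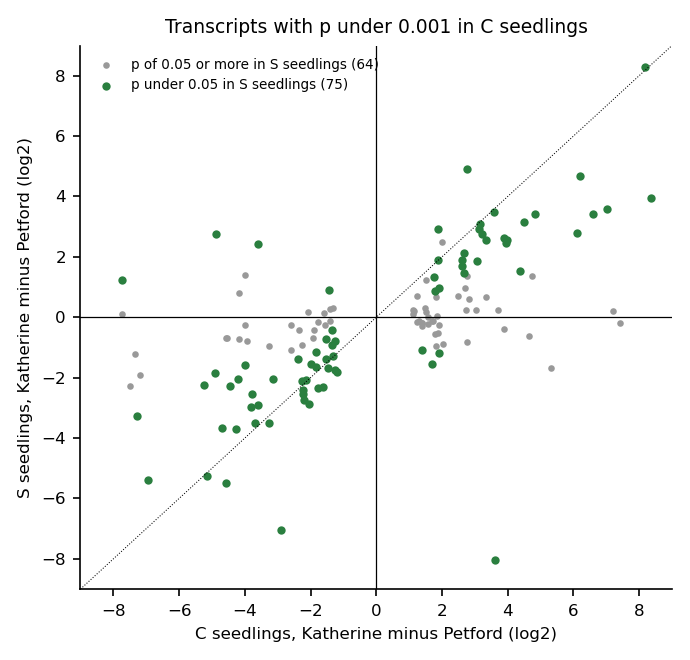
Katherine minus Petford log2 fold change in the C seedlings (x axis) and in the S seedlings (y axis) for the 139 transcripts with an unadjusted p under 0.001 in the C seedlings. Of these, 105 lie in the quadrants of equal sign, and the dotted line marks equal differences.

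Mt Isa, the remaining provenance, gave libraries that the comparison had not used. Its mean log2 CPM over 4 libraries was nearer to Petford for 34 of the 46 transcripts higher in Katherine (73.9%), beside 57% of all transcripts with a fitted value above 0, and nearer to Katherine for 39 of the 60 higher in Petford (65%), beside 56% of those with a value below 0. The terpene synthases differed from that majority among the latter. CUFF.1343, CUFF.1130, CUFF.1107, Eucgr.L02971 and Eucgr.F03400 were nearer to Petford, with 1022, 3569, 926 and 153 CPM of CUFF.1343 in Mt Isa C0, C1, S0 and S1, and CUFF.1110, with 8.42, 42.9, 8.36 and 6.49 CPM, was also nearer to Petford. Mt Isa was thus farther from Katherine than from Petford for these 6 genes, but its levels were not always those of Petford. CUFF.1107 had 277, 933, 119 and 56.4 CPM in Mt Isa C0, C1, S0 and S1, above Petford at each stage. For the annexin Eucgr.F02433 and both CYP71B23 homologs, Petford was the population with the highest levels and Mt Isa lay below Katherine.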

How the data were processed

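Libraries made with an mRNA-seq kit from total RNA of bulked leaf tissue gave single-end reads of 65 bases, and per the labels and the study's methods the authors mapped the reads to the draft E. grandis genome with TopHat and Bowtie, assembled transcripts from pooled reads with Cufflinks without annotation, and deposited raw read counts per transcript made with BEDTools; versions of these tools, the genome release and whether reads were counted by strand were not given in the sources used here. Coordinates are those of the deposited counts.

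Identical rows were used once, rows sharing scaffold and start with another were dropped, and at least 10 reads were required over the 8 libraries (1902802 to 6951584 reads each). Of the tested transcripts, 3932 overlap another. Counts were fitted with edgeR 4.0.16 (TMM, quasi-likelihood, bias-adjusted form, 2-sided, Benjamini-Hochberg over all 40630 transcripts, called at an adjusted p under 0.01), with stage as block. The design named the quasi-likelihood test without its form. The default form was run first, and the bias-adjusted one was adopted after both counts were seen, because the prior degrees of freedom of the default form fell from 73.42 to 12.39 when low transcripts were removed, against 9.622 and 10.5 in the adjusted form. Log2 fold changes are Katherine minus Petford, and their SE was derived from the F statistic. Same-stage libraries of both populations deviated together from their population means (r = 0.35 to 0.84). The untreated stages were not set apart by this: Katherine C0 correlated with Petford S0 at 0.37 and with Petford C0 at 0.35. Katherine S0 correlated with Petford C0 at 0.23 and with Petford S0 at 0.41. On simulated counts the test recovered 58 of 100 transcripts changed 4-fold and 14 of 100 changed 2-fold, and called 0 unchanged ones. The simulated libraries were drawn independently of each other, and only transcripts above a minimum mean read count were changed. The real libraries share seedlings in pairs, so the simulation cannot show how many false calls the real design gives.

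Names were taken from identifiers that the study gives by coordinates or SNP position, with Arabidopsis homologs up to an E value of 1e-05, for 2269 tested transcripts; per gene the transcript with the most reads was used. Named genes were, with a homolog and the same side in 4 stages, the 12 largest changes and 8 smallest p-values per direction, and the 2 largest called members per list; in addition, the 5 transcripts without reads in 1 population that had most in the other, and per direction the 3 unnamed ones with the smallest p. The members and lists were chosen with earlier results of these data known. Alternatives were DESeq2 1.42.0, RLE factors, other filters, limma-voom (limma 3.58.1), all 12 libraries, other blocks, subsets and leaving out each library. For Mt Isa C1 and S0 the sample title and source name disagree on the stage, and the title was followed. No sequences are shown.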

Additional observations from a re-analysis of the deposited data

Results flagged for a closer look

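In 70 groups of 4 libraries (1 named transcript in 1 population), 13 held a library far from the other 3. The rule used marks about 1 in 20 groups of like samples by chance. All 13 were S1 libraries, which are the stressed stage. The 4 libraries of a group are different stages and not like samples, so that rate does not apply. Groups without a read in any of their libraries could not hold such a library. The 13 are therefore a description. In Petford, the log2 CPM in S1 was 2.66 for Eucgr.J01007 (others 4.96 to 5.42), 6.01 for Eucgr.K03248 (0.942 to 1.63), 5.12 for Eucgr.D00576 (7.80 to 8.18), 1.54 for Eucgr.D01193 (5.89 to 6.15), 1.76 for Eucgr.D01195 (5.78 to 5.86), -0.614 for the scaffold 62 transcript at 120824, which had no read (4.4 to 5.3), and 5.7 for Eucgr.I02065 (8.93 to 9.35). In Katherine, it was 2.49 for Eucgr.D00576 (6.57 to 6.90), -0.204 for Eucgr.D01193 (3.98 to 4.39), 0.115 for Eucgr.D01195 (3.59 to 4.13), 4.89 for Eucgr.G02325 (1.19 to 1.74), 3.95 for the scaffold 7 transcript at 48934899 (-0.614, no read, in the others) and 4.56 for Eucgr.I02065 (8.04 to 8.68). For D00576, D01193, D01195 and I02065 the S1 library was apart in both populations.

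The 1,8-cineole synthase homolog CUFF.1697 changed from C1 to S1 by -6.15 on the log2 scale in Katherine and by 0.691 in Petford, and from S0 to S1 by -4.99 and 0.382. The difference between populations did not pass edgeR's interaction test (adjusted p = 0.385).

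Of the 10 named transcripts without reads in 1 compared population, 6 had reads in Mt Isa, which the tests did not use, and 3 of these had more than 3 reads in a Mt Isa library; the other 3 had 1 read each over the 4 Mt Isa libraries. The scaffold 4 transcript at 7913830, without Katherine reads, had 8 reads in Mt Isa S1, the scaffold 9 transcript at 29225072, also without Katherine reads, had 6 in Mt Isa S1, and the scaffold 8 transcript at 30796109, without Petford reads, had 28 in Mt Isa C1.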

How the results depend on the processing

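Counts are given as higher in Katherine, then higher in Petford, beside 46 and 60. DESeq2 gave 44 and 71, RLE factors 43 and 52, no filter 43 and 56, a CPM of at least 1 in 4 libraries 47 and 69, and keeping transcripts that share a start 48 and 67. Larger counts came from edgeR's default form (168 and 262), limma-voom with the seedling bulk as random block (91 and 149), all 12 libraries (83 and 101), robust dispersions (79 and 82) and an adjusted p under 0.05 (169 and 206). In the limma-voom fit, the estimated correlation between libraries of the same seedlings was -0.15. Being negative, it made no allowance for likeness between those libraries. The counts of 91 and 149 therefore do not show that calls hold once shared seedlings are accounted for. Without the replicate block of stages, and with the reads of the same seedlings summed and the seedling set as replicate block, 0 and 0 were called. Libraries from before the treatment gave 6 and 1, from the end 0 and 0, of C seedlings 4 and 1, of S seedlings 0 and 0. Leaving out 1 library gave 0 to 8 and 0 to 6; these fits hold fewer residual degrees of freedom by construction. It was 0 and 0 without C0 or S0 of either population, 8 and 6 without Katherine C1, 8 and 5 without Petford C1, 4 and 2 without Katherine S1 and 6 and 2 without Petford S1. The default form, robust dispersions and the fit without stage S1 (13 and 3) were chosen after seeing the data. Of the 106 transcripts, 84 were among the 115 of DESeq2 and 102 among the 240 of limma-voom. The 28 called transcripts named by rule all lost the call without C0 or S0 of either population, and 19 of them without stage S1, while no named transcript changed direction under any alternative. The interaction, with 0 calls, gave 4 with DESeq2, 44 with edgeR's default form, 3 with all 12 libraries and 0 under the other alternatives; limma-voom, and leaving out an S1 library, could not be fitted for it. Depth limits transcripts of few reads most: 10 of the 106 had 1 to 3 reads in the lower population.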

Other observations

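A few transcripts had opposite differences in the C and S seedlings of the same populations. With an unadjusted p under 0.001 in the C seedlings and under 0.05 with the other sign in the S seedlings there were 8 transcripts, a selection made on these values, so no test is given. The transcript at 32529 to 33269 on scaffold 62 had 52, 25, 0 and 0 reads in Katherine C0, C1, S0 and S1, and 1, 5, 91 and 4 reads in Petford, so its fitted log2 difference was 3.60 in the C seedlings and -8.05 in the S seedlings. On scaffold 9, 3 transcripts between 717830 and 753978 had the reverse pattern. The first had 0 and 0 reads in Katherine C0 and C1 and 10 and 27 in S0 and S1, against 22, 31, 2 and 23 in Petford, and the second, at 747677, had 1, 0, 16 and 15 reads in Katherine and 15, 22, 1 and 6 in Petford. For both seedling sets the pattern was present already before the treatment, in C0 and S0.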
